A study of Mus musculus with 52 samples.

Results

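The 4 non-ciliated libraries of the Wdr60 clone (R1 to R4) were compared with the 16 non-ciliated control libraries, 20 of the 52 libraries of the series. Libraries were assigned to the groups by their labels. All cells were Cilia-APEX-IMCD3, a mouse inner medullary collecting duct line that carries a cilium-targeted APEX peroxidase, and all 20 libraries came from cells grown with 10% fetal bovine serum; the ciliated cells of the series were deprived of serum. The Wdr60 clone, labelled as a homozygous mutant, was made with the cytosine base editor BE4-Gam and a guide RNA for Wdr60, and carries p.Ala911Val together with a heterozygous synonymous change next to it. The controls were 4 clones with 4 libraries each, labelled AB, 1, 2 and 3, which received BE4-Gam and the guide vector without a target sequence. One clone carries the mutation, and the 4 libraries of a clone are technical replicates. The p-values therefore measure only the spread between these libraries, and genotype and clone cannot be told apart. In bulk RNA, fewer cells of a kind and less RNA per cell cannot be told apart either.

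Wdr60 and its partner Wdr34 are the intermediate chains of cytoplasmic dynein-2, the motor that carries intraflagellar transport trains from the ciliary tip back to the cell body. Loss of dynein-2 function is known to leave cargo at the ciliary tip and to disturb Hedgehog signaling, which in mammals runs through the cilium. Proliferating cells mostly lack a cilium, so a comparison without serum deprivation asks which transcripts differ in the mutant clone outside the ciliated state.

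The edited site is shown because it defines the clone. On GRCm38 the protospacer and its PAM lie on the minus strand at chr12:116211807-116211828, in the coding part of exon 21 of 22 of Wdr60. The capitals mark the target cytosine, position 5 counted from the 5′ end, which is coding base 2732 in codon 911, and the PAM.
Wdr60 protospacer with PAM: cctgCagtgttcctggtccAGG

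Library totals were 16092399 to 17736190 counts in the Wdr60 clone and 15617398 to 21085697 in the controls, so that 1 CPM (counts scaled to library size by TMM) stood for 16.02 to 20.8 counts. Of the 20 libraries, 2 stood apart. R1 of the Wdr60 clone differed from R2, R3 and R4 by a mean of 0.329 on the log2(CPM + 1) scale, and R1 of control AB from the other 3 of its clone by 0.417. Over the other 18 libraries this value was 0.0631 to 0.176. One control clone also went against its cell type. The summed level of 6 epithelial markers was 185 to 197 CPM in control 2, 3038 to 3091 CPM in the Wdr60 clone and 2814 to 4862 CPM in the other control libraries. Krt7, a simple-epithelium keratin, averaged 3.71 CPM in control 2, 697 to 924 CPM in the other control clones and 845 CPM in the Wdr60 clone. The general collecting duct genes Pax2, Pax8 and Cdh16 were present in all 20 libraries. The 14 collecting duct markers summed to 504 to 532 CPM in the clone and 583 to 1008 CPM in the controls, so every Wdr60 library lay below every control. Aqp2, the vasopressin-regulated water channel of principal cells, had 1 count in all. Of 6 endothelial and 3 podocyte markers none reached 1 CPM in any library. Markers of other cells were mixed. The leukocyte markers summed to 36.4 to 47.0 CPM in the clone and 30.2 to 66.9 CPM in the controls, mostly Csf1r and Cd14, with Itgam at 0. The fibroblast markers summed to 2.16 to 5.06 and 2.51 to 6.22 CPM, mostly Col1a1, with Col3a1 at 0. The proximal tubule markers summed to 29.3 to 37.5 and 17.5 to 292 CPM, from Cubn and Lrp2, with Slc34a1 at 0, and Lrp2 was called lower in the clone.

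The targeted gene was transcribed in the mutant clone. Wdr60 was at 25.1, 33.2, 30.6 and 31.2 CPM in R1 to R4, and the 16 controls had a lowest value of 18.3, a median of 24.5 and a highest of 26.8 CPM. R1 lay within the control range and R2 to R4 above it. The log2 fold change was 0.34 (SE 0.10, adjusted p = 0.0263), under the 2-fold limit used here. Counts per gene do not show the base change itself. Of 14 genes for dynein-2 subunits, 12 had enough counts to be tested and none was called, where 3.41% of all genes were called. Wdr34 was at 17.8 CPM in R1 and 33.6 to 38.7 CPM in R2 to R4, around a control median of 25.2 CPM (log2 fold change 0.28, adjusted p = 0.279). The heavy chain Dync2h1 was at 20.3 to 24.2 CPM against a control median of 22.8 CPM, and the light intermediate chain Dync2li1 at 25.5 to 28.5 against 27.96 CPM. The near-identical copies Dynlt1a, Dynlt1b and Dynlt1f share reads, and their separate values are uncertain.

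The balance of higher and lower genes in the clone depended on the rule. A gene is called here at an edgeR adjusted p under 0.05 and a difference of at least 2-fold. Of 12371 genes tested, 122 were called higher (0.986%) and 300 lower (2.43%). All 4 Wdr60 libraries lay above all 16 controls for 315 genes (2.55% of those tested) and below them for 242 genes (1.96%). Among the called genes, this held for 78 of the 122 higher and 147 of the 300 lower genes. When the clone was the unit, calls almost vanished. With a correlation within clones estimated by voomLmFit, 14 genes were called higher and 5 lower, and with the libraries of each clone summed, edgeR called 0 of 13908 genes, of which 393 had an unadjusted p under 0.05. With no limit on the fold, 740 genes were higher and 743 lower at the same adjusted p, and the median log2 fold change over all 12371 genes was -0.01. The 19 genes called with the clone as a block were all among the 422 called over libraries. They included the secreted factors Tgfb3 and Angptl2 and the transcription factors Klf4 and E2f6 on the higher side, and on the lower side the retinoic acid-synthesizing enzyme Aldh1a2, Srd5a1, Plat and Adgrg1. Leaving out control AB, the clone with the other deviating library, gave 308 higher and 473 lower genes, of which 114 and 288 were shared with the calls over all libraries. Leaving out R2, R3 or R4 of the Wdr60 clone gave 76, 79 or 88 higher and 156, 162 or 177 lower genes.

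**Figure D1:**
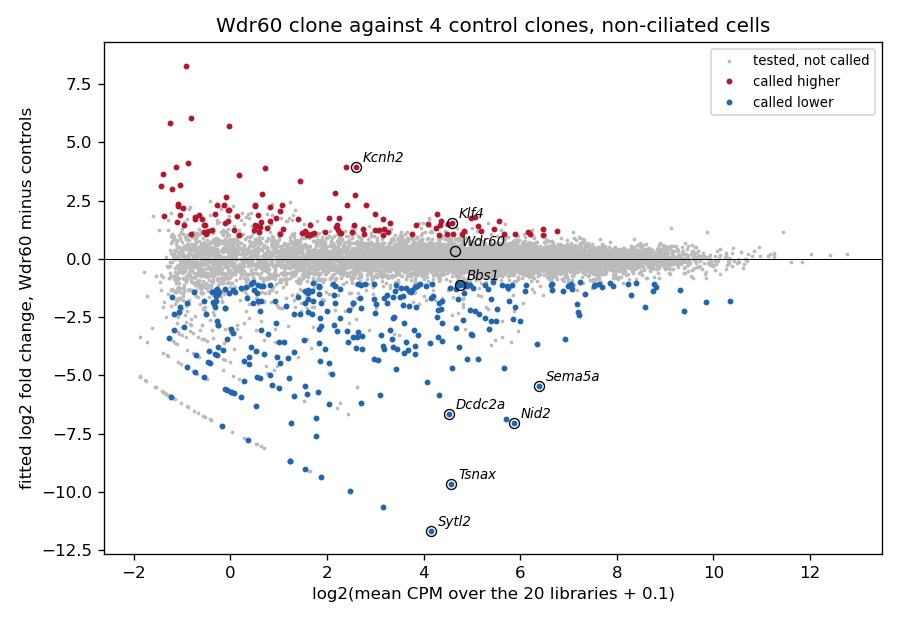
Each point is 1 of 12371 tested genes, plotted as the fitted log2 fold change of the Wdr60 clone over the controls against the log2 of mean CPM over the 20 libraries plus 0.1, with the 122 genes called higher in red and the 300 called lower in blue. The named genes are ringed, Wdr60 lies close to 0, and the diagonal edge at the lower left holds genes with no count in the Wdr60 libraries, whose fitted fold depends on the prior count.

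The 15 genes that were lowest relative to the controls, with all libraries separated, were headed by genes that were close to silent in the clone. Tsnax, which encodes the translin partner translin-associated factor X (chr8:125013041-125034208), was at 0, 0.0556, 0.0578 and 0 CPM in R1 to R4, or 2 counts in all. The controls had 16.4, 29.4 and 45.8 CPM as lowest, median and highest values. The groups did not overlap, and every control clone expressed the gene, from 17.6 to 41.8 CPM. The ratio of controls to clone was 1005 (exact 95% counting interval 278 to 8296), with an adjusted p of 9.11e-10. Its nearest tested neighbours had log2 fold changes of -0.07 for Egln1 and -0.66 for Sipa1l2, neither called.

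Sytl2, a Rab27 effector of vesicle docking, had no count in any Wdr60 library. It was at 1.25, 13.3 and 65.4 CPM as lowest, median and highest control values, at least 502-fold higher against a floor of 3 counts over the 4 libraries. The control clones themselves spread from 1.99 CPM in AB to 60.3 CPM in control 2. Alcam, a cell adhesion molecule of the immunoglobulin family, also had no count in the clone and 0.683 to 6.14 CPM in the controls, at least 63.7-fold higher. A further 5 genes had no count in the clone. The sulfotransferase Chst15 was at least 248-fold lower than the control mean, the neuropeptide Y receptor Npy2r at least 154-fold, the homeobox factor Pitx1 at least 101-fold, Tmem252 at least 80-fold and the nuclear factor Tox at least 63.4-fold. For Chst15, Npy2r and Tox the highest control clone was control 2, for Pitx1 it was AB and for Tmem252 control 3. These folds rest on the high clones. Chst15 averaged 34.3 CPM in control 2 but 0.204 CPM in control 3 and 0.672 CPM in AB, and Npy2r 21.4 CPM in control 2 but 0.239 CPM in AB. Pitx1 was at 0.452 CPM in control 2, Tmem252 at 0.302 CPM in control 2 and Tox at 0.387 CPM in AB.

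Dcdc2a encodes a doublecortin-domain protein of the cilium. It was at 0.309, 0.389, 0.173 and 0.247 CPM in the clone and at 3.002, 16.005 and 79.5 CPM as lowest, median and highest control values. The groups did not overlap (log2 fold change -6.64, SE 1.24, adjusted p = 0.00151). Nid2, the basement membrane protein nidogen-2, was at 0.433 to 0.635 CPM in the clone, and its control clones averaged 3.98, 26.1, 253 and 7.09 CPM in AB, 1, 2 and 3. Tmem178 had a like spread, at 0.186 to 0.834 CPM in the clone and a mean of 213 CPM in control 2. For these 3 genes the control spread was wide and control 2 held the highest values. The nearest tested gene before Dcdc2a, Mrs2, was itself called lower (log2 fold change -1.06). The imprinted zinc finger gene Plagl1 was at 0 to 0.185 CPM against a control median of 4.49 CPM, and the ubiquitin ligase gene Rnf144a at 0.0556 to 0.186 against 7.70 CPM. The other 2 genes, Ankrd33b and Ptchd4, had 1 and 2 counts in the clone.

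The 15 highest genes were low in most control clones, and several had clear levels in control AB. Kcnh2, a voltage-gated potassium channel (chr5:24319589-24351684), was at 16.7, 28.1, 24.1 and 25.6 CPM in R1 to R4. Its controls had 0, 0.449 and 5.81 CPM as lowest, median and highest values, with 5.08 CPM in AB and 0.185 to 0.542 CPM in the other clones. All Wdr60 libraries were above all controls (log2 fold change 3.95, SE 0.78, adjusted p = 0.00234). Rcn1, a calcium-binding protein of the endoplasmic reticulum, was at 22.8, 20.7, 19.8 and 18.9 CPM against a control median of 0.412 CPM, and here too AB was the highest control clone, at 4.56 CPM (log2 fold change 3.92, SE 0.83, adjusted p = 0.00419). Ptgds, a prostaglandin D2 synthase, was at 4.75 to 7.51 CPM against 0 to 1.15 CPM, Mrc2, a collagen-binding endocytic receptor, at 6.87 to 11.6 against 0 to 3.61 CPM, and the annexin Anxa8 at 13.4 to 15.8 against 0 to 5.68 CPM. Ank2, which encodes ankyrin-B, was at 3.51 to 4.28 CPM against at most 0.865 CPM.

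Most of the remaining higher genes were under 3 CPM in all libraries. The RNA gene B630019K06Rik was at 1.30 to 2.54 CPM and had no count in 16 controls, at least 211-fold higher against a floor of 3 counts over the 16 libraries. C920009B18Rik, Ugt1a1, Dnah5, Fam167a, Pde2a and Plscr4 had control medians of at most 0.123 CPM and Wdr60 values of 0.834 to 2.29 CPM. Ugt1a1 shares exons with its neighbours in the Ugt1a cluster, so its counts are uncertain. The higher genes Rbmy and Gm21693 belong to a multicopy family on chromosome Y, whose reads can be split among copies. Rbmy was at 8.10 CPM in R1 and 2.48 to 2.96 CPM in R2 to R4, against at most 0.245 CPM in a control. Of the 59 nearest tested neighbours of all 30 genes, 3 were called higher and 4 lower, against 0.986% and 2.43% of all genes. Of these called neighbours, 5 were called in the same direction as the named gene. Rbmy and Gm21693 are each other's neighbours, 485 kb apart. The lower neighbours of Dcdc2a, Sytl2 and Rnf144a were Mrs2, Ccdc89 and Id2, at distances of 34.9, 15.6 and 1211 kb. In the opposite direction, Ctnnd2 was lower, 1700 kb from the higher gene Dnah5. Likewise Pcbd2 was higher, 48.2 kb from the lower gene Pitx1.

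**Figure D2:**
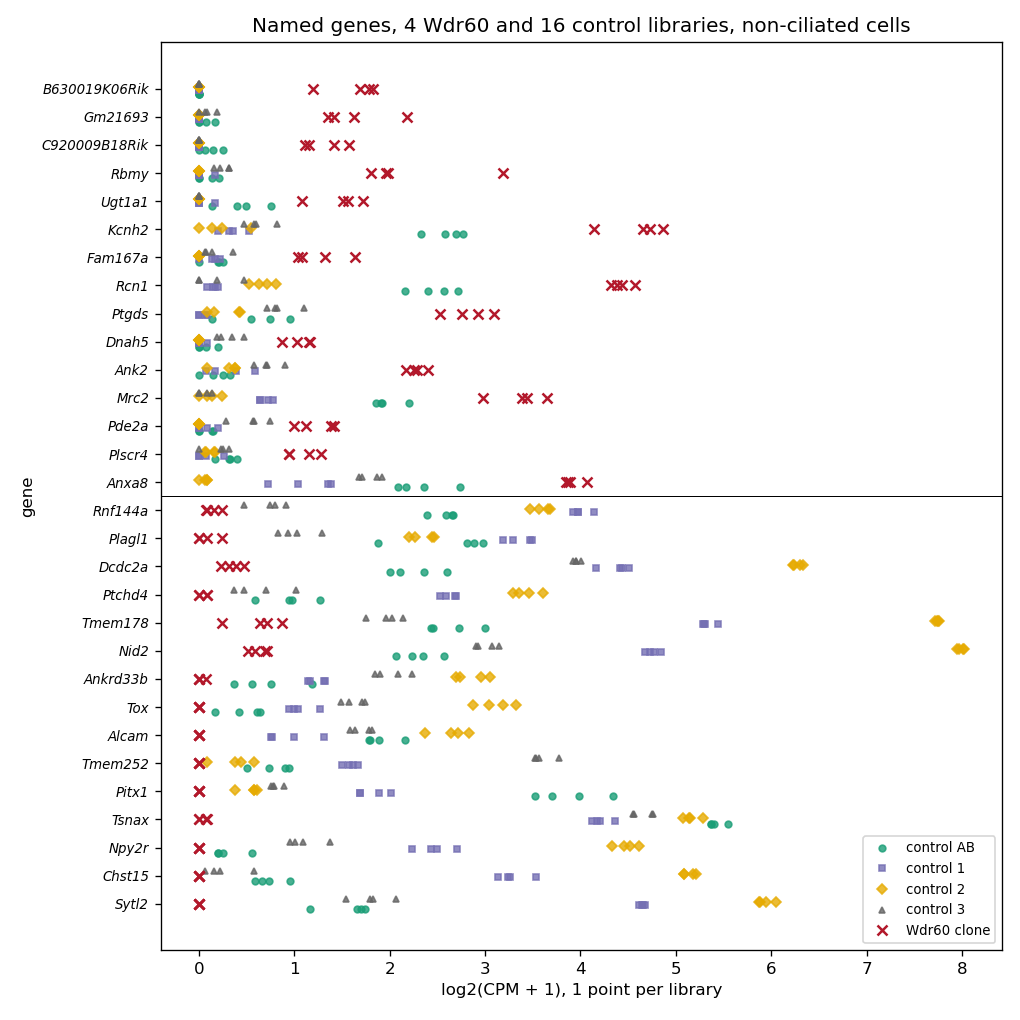
The log2(CPM + 1) of the 15 highest and 15 lowest called genes is plotted with 1 point per library, crosses for the 4 Wdr60 libraries and filled marks for the 4 control clones. The Wdr60 libraries lie at or near 0 below the line and above every control over it, while control 2 (diamonds) often holds the highest control value among the lower genes.

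Promoters were counted for CG dinucleotides in both sets. Among 9362 tested genes with a RefSeq promoter on GRCm38.p6, from 250 bases before to 50 after the first listed start, the median number of CG dinucleotides was 21, and 84.5% held at least 10 (CG reads the same on both strands). Of the 15 lower genes 10 had a listed promoter, with a median of 23 CG and 8 with at least 10. Of the 15 higher genes 11 had one, with a median of 5 CG and 2 with at least 10. Rbmy and Gm21693 are both among the 11, and their windows have the same sequence, with 8 CG. The share over all tested genes was not matched for expression level. An example of each is printed with CG in capitals, Dcdc2a (plus strand, chr13:25055754-25056053) with 24 and Ptgds (minus strand, chr2:25469700-25469999) with 2. The Dcdc2a window lies inside the full span listed for that gene, which starts at chr13:25055273. These counts describe the windows only.
Dcdc2a promoter: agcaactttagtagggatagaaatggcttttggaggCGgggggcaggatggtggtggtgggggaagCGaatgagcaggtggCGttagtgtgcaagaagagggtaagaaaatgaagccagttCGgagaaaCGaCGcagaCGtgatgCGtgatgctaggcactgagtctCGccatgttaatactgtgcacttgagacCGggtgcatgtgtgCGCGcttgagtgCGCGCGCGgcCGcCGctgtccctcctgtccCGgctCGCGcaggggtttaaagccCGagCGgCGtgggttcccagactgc
Ptgds promoter: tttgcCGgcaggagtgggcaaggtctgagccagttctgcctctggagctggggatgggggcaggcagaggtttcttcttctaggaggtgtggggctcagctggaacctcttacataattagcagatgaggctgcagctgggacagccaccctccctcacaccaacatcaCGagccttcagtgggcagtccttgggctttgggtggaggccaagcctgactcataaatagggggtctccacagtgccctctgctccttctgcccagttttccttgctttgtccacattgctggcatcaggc

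Genes of the cilium were examined by complex. None of 7 tested genes of the IFT-A complex and none of 17 of IFT-B was called, against 3.41% of all genes called in either direction. Of 10 genes of the BBSome, the coat that carries membrane proteins in cilia, Bbs1 was called lower. It was at 13.1, 14.5, 13.1 and 14.9 CPM in the clone and at 21.6, 29.96 and 39.4 CPM as lowest, median and highest control values, without overlap (log2 fold change -1.12, SE 0.17, adjusted p = 0.000175). Of 25 genes of the transition zone and nephronophthisis modules, 2 were called lower, Dcdc2a and Cc2d2a. Cc2d2a was at 1.60 to 2.72 CPM against 1.75 to 8.04 CPM in the controls, with R4 below every control and R1 to R3 within their range (log2 fold change -1.15, SE 0.33, adjusted p = 0.0252), and was not called without control 2. Tulp3, an adapter of IFT-A, was at 63.2 to 77.9 CPM against a control median of 152 CPM (log2 fold change -0.96, adjusted p = 0.0225). In control AB it averaged 67.8 CPM.

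Of 11 tested genes of the Hedgehog pathway, 1 was called higher and 1 lower, against 0.986% and 2.43% of all genes. Gli1, a transcription factor and target of the pathway, was at 1.05, 0.667, 1.16 and 1.79 CPM against 0.0487, 0.374 and 0.832 CPM as lowest, median and highest control values (log2 fold change 1.78, SE 0.46, adjusted p = 0.0151). R2 lay within the control range. Gas1, a Hedgehog co-receptor, was at 1.42 to 3.27 CPM, and its control clones averaged 16.2, 44.8, 189 and 0.984 CPM in AB, 1, 2 and 3, so that the clone lay above control 3 and below the others (adjusted p = 0.048). The call on Gas1 was lost without R1 and without control 2.

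Of 28 genes of Golgi coats and trafficking, 4 were called lower and none higher, against 2.43% lower and 0.986% higher over all genes. Rab6b, a Golgi Rab GTPase, was at 1.11, 1.11, 1.16 and 0.678 CPM against 7.93, 15.2 and 33.6 CPM as lowest, median and highest control values (log2 fold change -4.08, SE 0.50, adjusted p = 2.47e-05). The groups did not overlap, and the gene was lower than each control clone. The palmitoyltransferase gene Zdhhc14 was at 0.5004 to 1.05 CPM against 1.63 to 6.08 CPM, also without overlap. The myosin gene Myo5c was at 0.0556 to 0.309 CPM, just under its lowest control of 0.332 CPM, and AB had its highest clone mean, 7.63 CPM. Elmod1, a GTPase-activating protein of Arf family members, was at 0 to 0.123 CPM, but control AB averaged 0.0647 CPM as well. These 4 genes are also among 7 that the study named for both states, so their count is not independent evidence. The other 3 were Dcdc2a, lower, and Rgs2 and Pvrl1, higher. Rgs2, which dampens G protein signaling, was at 1.502 to 2.89 CPM against 0.150 to 1.22 CPM, and Pvrl1 (nectin-1) at 1.79 to 2.59 against 0 to 1.37 CPM.

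Genes of mesenchyme and of SRF and YAP targets were lower in part. Of 13 tested mesenchymal genes 4 were called lower and none higher, with a median log2 fold change of -0.58. Of 28 SRF and YAP targets 5 were called lower and none higher (median -0.56). Over all 12371 genes 2.43% were called lower and 0.986% higher, with a median of -0.01. Twist2, a transcription factor of mesenchyme, was at 6.25, 9.40, 9.36 and 8.32 CPM against 20.8, 42.3 and 64.8 CPM as lowest, median and highest control values (log2 fold change -2.25, SE 0.28, adjusted p = 2.49e-05). The groups did not overlap. Zeb1, a repressor of epithelial genes, was at 1.18 to 2.16 CPM in the clone and 2.91 CPM in control AB, but at 25.6 to 80.6 CPM in the other control clones. Tagln, an actin-binding protein, was at 0.347 to 0.667 CPM against 1.12 to 12.1 CPM, and Acta2, smooth muscle actin, had 1 count in the clone. F3, tissue factor, was at 40.4 to 55.6 CPM against 78.0 to 167 CPM. Acta2 and Tagln are in both lists. Without control 2, the clone low in epithelial markers, 4 and 6 lower calls were made, and without R1 4 and 4. Of 33 epithelial genes none was called, but their median log2 fold change was 0.51, with 25 genes positive and 8 negative. Control 2 is among the controls behind this median.

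Matrix and adhesion lists are set against 2.43% of all genes called lower and 0.986% higher, so that calls leaned to the lower side over all genes as well. Of 31 matrix glycoproteins and proteases 6 were lower, among them the lysyl oxidase Loxl3 at 0.289 to 0.740 CPM against 2.15 to 7.79 CPM, and Ecm1 at 5.60 to 7.55 against 12.1 to 30.0 CPM. Thbs1, thrombospondin-1, was at 355, 254, 280 and 313 CPM against a control median of 1019 CPM (log2 fold change -1.84, SE 0.36, adjusted p = 0.00206), and Plat, tissue plasminogen activator, was one of the genes called with the clone as a block. Of 26 integrin and laminin genes, Nid2 and Itga1 were lower, and of 16 collagens, Col4a2. Of 22 cadherins and relatives, Pcdh1 and Pvrl1 were higher and Fat1 and Celsr1 lower. Pcdh1 was at 83.6 to 116 CPM against 8.56 to 58.5 CPM. Of 55 actin regulators, Parvb and Cdc42ep5 were higher and Scin, Synpo and Fmnl3 lower. Scin, an actin-severing protein, was at 12.8, 14.2, 9.53 and 10.9 CPM against 28.0, 89.7 and 103 CPM as lowest, median and highest control values (log2 fold change -2.69, SE 0.40, adjusted p = 0.000181).

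Among secreted ligands and their receptors, calls went in both directions. Of 38 genes of the TGF-beta and BMP pathway, Tgfb3 was higher and 6 were lower (median -0.29), against 0.986% higher and 2.43% lower over all genes. Tgfb3 was at 35.4, 41.6, 33.4 and 35.4 CPM, above the highest control of 24.9 CPM (log2 fold change 1.31, SE 0.21, adjusted p = 0.000318). Tgfb2 was at 1.16 to 2.28 CPM, below the lowest control of 2.56 CPM, so the 2 ligands of the same receptors were called in opposite directions. The inhibin subunits Inha and Inhbb and the BMP targets Id2 and Id4 were lower, as was the activin antagonist Fst. Of 43 growth factors and receptors, Fgf1, Angptl2 and Figf were higher and Igfbp7, Gfra1, Met, Pdgfd and Nrg1 lower. Fgf1 was at 59.9, 45.4, 42.2 and 41.4 CPM against 2.54, 9.45 and 30.4 CPM as lowest, median and highest control values. Angptl2 was at 17.6 to 20.1 CPM against 1.73 to 8.60 CPM, and Figf, a lymphatic growth factor of the VEGF family, at 2.39 to 3.96 against 0.501 to 1.33 CPM. Met, the receptor of hepatocyte growth factor, was at 169 to 217 CPM against 482 to 643 CPM in controls 1, 2 and 3, but 209 CPM in control AB.

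Guidance and cell fate lists had a few lower calls, where 2.43% of all genes were called lower and 0.986% higher. Of 48 axon guidance genes, Sema5a, Sema7a and Ntn1 were lower and none higher. Sema5a was at 1.98, 1.95, 2.20 and 3.39 CPM against 19.2, 83.1 and 233 CPM as lowest, median and highest control values (log2 fold change -5.45, SE 0.92, adjusted p = 0.000608). Sema7a was at 3.28 to 5.004 against 11.5 to 62.1 CPM, and netrin-1 (Ntn1) at 6.19 to 8.84 against 12.1 to 66.8 CPM. The 3 genes did not overlap with any control. Of 35 Wnt pathway genes, Wnt2, Fzd9 and Fzd7 were lower, and without control 2 only 1 lower call was left and 1 higher was gained. Of 19 Notch pathway genes the ligand Jag1 was lower, at 33.5 to 38.2 CPM against 178 to 295 CPM in controls 1, 2 and 3, and 37.8 CPM in control AB. Of 24 cytokines 5 were lower, but without R1 the number was 2.

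Of 34 immediate early genes 3 were called higher, with all 4 libraries above all controls, and none lower, where 0.986% of all genes were called higher and 2.43% lower. Klf4 was at 42.2, 53.4, 48.4 and 57.3 CPM against 12.1, 18.03 and 22.9 CPM as lowest, median and highest control values (log2 fold change 1.55, SE 0.14, adjusted p = 4.86e-07). Its control clones were close together, at 12.8 to 20.1 CPM. Klf2 was at 37.5 to 57.3 CPM against 10.2 to 34.7 CPM, and Fosb at 39.9 to 64.98 against 17.7 to 28.6 CPM. Slc7a11, the cystine importer, and Psph, an enzyme of serine synthesis, were the 2 higher of 41 genes of the Atf4 and endoplasmic reticulum stress response. In the same list 1 gene was lower, Stc2, with a log2 fold change of -5.27, and the list median was 0.02. Among 16 imprinted genes 5 were lower and none higher. Mest was at 0.990, 0.667, 0.924 and 2.03 CPM against 7.92, 11.2 and 21.2 CPM (log2 fold change -3.42, SE 0.32, adjusted p = 7.20e-07), with no overlap. H19 was at 0.834 to 1.61 CPM, under control AB at 2.36 CPM and far under control 2 at 83.9 CPM. Peg3 was at 98.5 to 136 CPM against a median of 429 CPM, within the control range. The remaining stress and defense lists held few calls. Of 46 interferon genes, Ifit3, Tgtp1 and Lgals3bp were lower, of 27 heat shock genes Dnaja4 and Hspb8, of 35 hypoxia genes Slc2a1, and of 26 Nrf2 targets Gclc, with Slc7a11 higher. The hypoxia list had a median of -0.37, with 28 genes negative and 7 positive. Of its genes, 5 were separated below all controls and 1 above, where 1.96% and 2.55% of all genes were. Aqp3, the one called gene of 13 for collecting duct identity, was higher, at 0.619 to 1.45 against at most 0.499 CPM. The list had a median of -0.47, and its abundant members Pax2 and Cdh16 were below all controls, at 89.3 to 104 against at least 109.6 CPM and 141 to 164 against at least 197 CPM, with differences under 2-fold.

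Lists of growth and metabolism are given with the share of all genes called, 3.41%, at which lists of this size hold few calls or none. None of 43 DNA replication genes, 45 mitosis genes, 34 genes of cholesterol and fatty acid synthesis or 24 p53 targets was called. Mcm7, a helicase subunit, was still at 666 to 707 CPM against 494 to 560 CPM, without overlap. The difference between the groups was 0.39 on the log2 scale (adjusted p = 2.39e-05). The replication-dependent histone genes of the Hist1 cluster on chromosome 13, singled out after their values were seen, were an exception in this group. Of 37 tested, 12 were called higher and none lower, with a median log2 fold change of 0.85. Hist1h3c was at 10.4, 16.7, 14.7 and 16.4 CPM against 2.33 to 8.76 CPM. Their summed level was 52.6 CPM in R1 and 98.1 to 101 CPM in R2 to R4, against 32.0 to 70.7 CPM in the controls, so R1 lay within the control range. These mRNAs end without a poly(A) tail, their copies are near-identical, and the ribosomal RNA precursor Rn45s moved with them among the Wdr60 libraries, at 841 CPM in R1 and 3605 to 9476 CPM in R2 to R4 (controls 724 to 6311 CPM). Its part in the result was not tested. The 7 other tested genes between the first and the last Hist1 gene had a median of 0.50, and none was called.

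Of the lists that the study drew from ciliated cells of the same mutant clones, 4 were used here. Because the Wdr60 clone is shared, their counts are not independent evidence, and over all genes 0.986% were called higher and 2.43% lower. Of 12 tested genes of synapse assembly, 7 were called lower. The adhesion protein gene Lrfn1 had no count in the clone, at least 22-fold below the control mean, and Flrt1 was at 0.924 to 3.17 CPM against 3.87 to 49.8 CPM. Adgrb2 was at 0.928 to 2.20 CPM and 1.54 CPM in control AB. Of 12 genes of vasculature development 2 were higher and 4 lower, of 13 of renal system development 1 and 4, and of 4 of terminal unit subdivision 2 were lower.

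Median differences were uneven over the chromosomes. The median log2 fold change was -0.42 over 583 genes of chromosome 6, with 4 genes called higher and 31 lower, where 0.986% and 2.43% of all genes were called. It was 0.29 over 805 genes of chromosome 5, with 11 genes called higher and 16 lower, and 99 genes (12.3%) separated above all controls against 2.55% overall. The 6 genes of chromosome Y had 0.43, but on the log2(CPM + 1) scale the clone differed by 1.01 from control AB, 0.15 from control 1, -0.07 from control 2 and 0.20 from control 3. On chromosome 13, which holds the Hist1 genes, 16 of 483 genes were called higher and 15 lower. Apart from chromosomes 5, 6 and Y, the other 18 chromosomes lay between -0.10 and 0.08. On chromosome 6 the Wdr60 libraries were at -0.37 to -0.34 relative to the mean of the controls on the log2(CPM + 1) scale, R1 at -0.35 among them. Control AB was as low, so that the clone differed from it by 0.03, and from controls 1, 2 and 3 by -0.47, -0.47 and -0.57. Chromosome 5 was higher than in each control clone, by 0.21 to 0.37. The control clones had shifts of their own. Relative to the other controls, control 2 was at -0.56 on chromosome 1, control 3 at -0.47 on chromosome 3 and AB at -0.54 on chromosome 6 and -0.38 on chromosome 18. Loxl3, Mest, Met and Tulp3 are on chromosome 6, and Kcnh2, Mcm7, Psph and Igfbp7 on chromosome 5. The part of the chromosome in these genes was not tested.

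**Figure D3:**
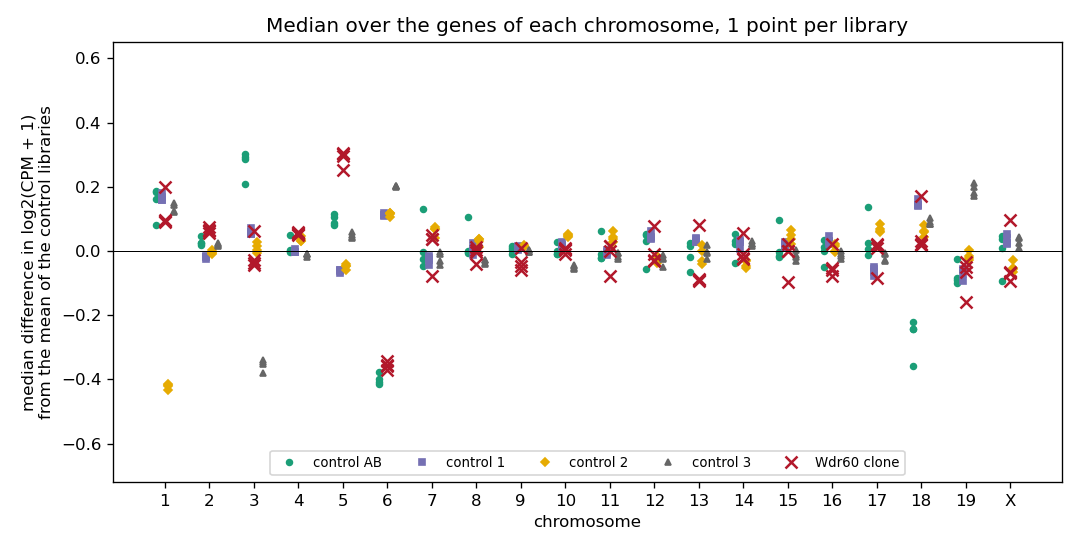
For each chromosome except Y, the median over its genes of the difference in log2(CPM + 1) from the mean of the 16 control libraries is plotted, 1 point per library, crosses for the Wdr60 clone and filled marks for the 4 control clones. The Wdr60 crosses stand between -0.37 and -0.34 on chromosome 6, next to those of control AB, and between 0.25 and 0.31 on chromosome 5, where no control reaches them.

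R1 was compared with R2 to R4 with no test, since it is 1 library. A gene was counted when R1 was at least 2-fold beyond all 3 others on the log2(CPM + 1) scale, at 5 CPM or more in R1 or in their mean. Of 10226 genes considered, 8 were higher in R1 (0.0782%) and 155 lower (1.52%). In R1 of control AB 63 were higher and 288 lower, and in the other 18 libraries at most 1 gene was counted. The lowest in R1 were 4930413G21Rik, at 0.371 CPM against a mean of 11.3 CPM in the others, the ribosomal RNA gene Rn45s, at 841 against 6319 CPM, and Lars2, at 96.4 against 593 CPM. Scand1, Tmem160, Mir6236, Zbed5, Gm1673, Ppp1r14b and Rplp2 followed, with differences of -2.44 to -2.02. Lars2 encodes a mitochondrial leucyl-tRNA synthetase, Ppp1r14b an inhibitor of protein phosphatase 1 and Rplp2 a ribosomal stalk protein. The 8 higher genes included Rpl35, at 292 CPM against a mean of 99.6, Pnp2, S100a11, Rbmy, Uchl4, Ppp1r2-ps3 and Uqcrb. S100a11, a calcium-binding protein, was at 1095 CPM against 391 CPM. Rpl35, Pnp2, Rbmy and the pseudogene Ppp1r2-ps3 have close copies among which reads can be split.

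The genes that were low in R1 were rich in G and C. For the 149 with a sequence, the longest GENCODE transcripts had a median GC content of 59.4%, against 49.6% over the genes considered, and a median length of 1858 against 3498 bases. Over 9877 genes, the difference of R1 had a correlation of -0.68 with GC content and 0.21 with log2 length, a description across genes of 1 library. In the lowest of 10 equal bins by GC content the median difference was 0.39, and in the highest it was -0.54. In R1 of control AB the same values were -0.26 and 0.35, with a correlation of -0.71 with log2 length. For 128 of the 155 lower genes R1 lay below all 16 controls, and for 32 genes R2 to R4 lay above all of them. Of the 155 genes, 2 were called higher between the groups and none lower.

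**Figure D4:**
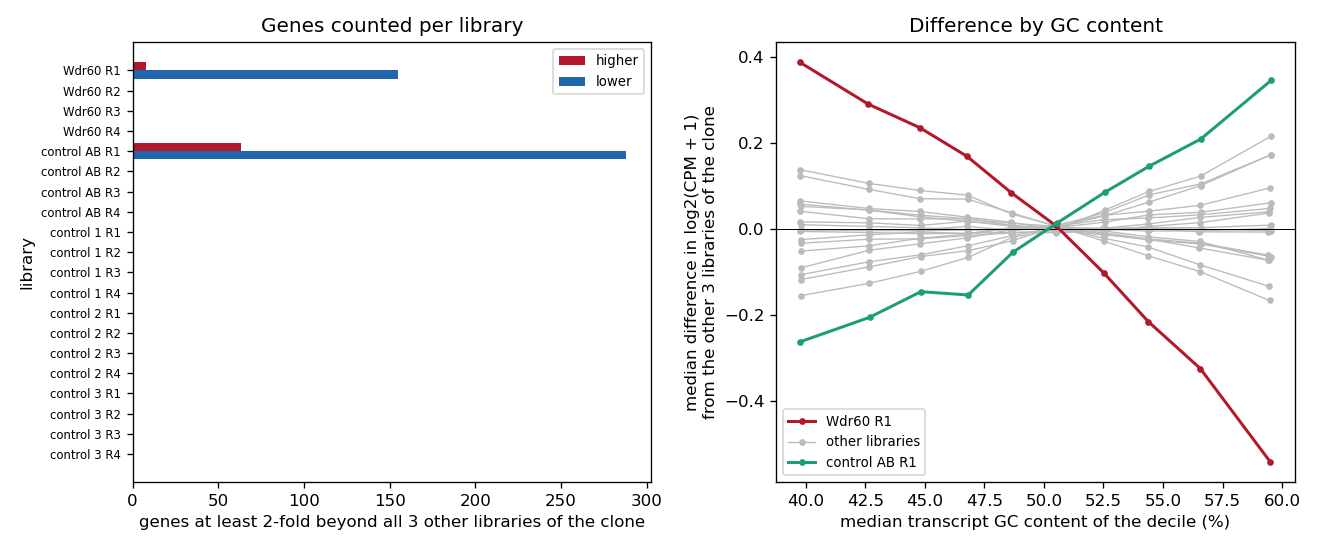
Left, the number of genes in each of the 20 libraries that were at least 2-fold higher (red) or lower (blue) than in all 3 other libraries of its clone, and right, the median difference in log2(CPM + 1) from those libraries in 10 equal bins of genes by transcript GC content. Wdr60 R1, with 8 and 155 genes, runs downward with GC content, and control AB R1, with 63 and 288 genes, upward.

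On chromosome 6, R1 was as low as the other 3 libraries of its clone. Without R1, 136 genes were called higher and 244 lower, of which 101 and 213 were shared with the calls over all libraries. Without R1 of the clone and R1 of control AB, 189 were higher and 331 lower, of which 114 and 272 were shared, and all 422 genes kept their sign.

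In ciliated cells the Wdr60 clone was compared with 16 control libraries labelled D8, H12, A4 and G7, separate from those above. The methods of the study count as many control clones in all as are labelled in each state, and the labels do not say whether these are the same clones under other names. There 80 of 12456 genes were called higher (0.642%) and 161 lower (1.29%). Both states called 27 genes higher, 22.1% of the non-ciliated and 33.8% of the ciliated calls, and 101 genes lower, 33.7% and 62.7%. No gene was called in opposite directions. Tsnax averaged 0.0660 CPM in the ciliated clone against a control median of 28.3 CPM, and Alcam 0.186 against 11.6 CPM. Kcnh2 (log2 fold change 3.26), Rcn1 (5.28), Mrc2 (7.06), Tgfb3 (1.23) and Fgf1 (1.997) were called higher and Bbs1 (-1.18), Rab6b (-3.47), Mest (-2.32) and Sema5a (-3.20) lower in both states. Levels were scaled within each state.

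The difference between the states was tested itself, as an interaction over 40 libraries. Of 12796 genes, 7 were called with a larger value in non-ciliated cells (0.0547%) and 28 with a smaller one (0.219%), and 2 of the 122 higher and 21 of the 300 lower genes were among them. Scin fell by 2.69 on the log2 scale in non-ciliated cells and was at 0.06 in ciliated cells (difference -2.76, adjusted p = 0.000199). Tagln was at -3.55 and -0.62 (difference -2.94, adjusted p = 0.0138), Aldh1a2 at -2.68 and -0.26 (difference -2.43, adjusted p = 0.00647) and Fmnl3, a formin, at -1.37 and 0.01 (difference -1.38, adjusted p = 0.0369). Klf2 was at 1.51 and -0.40 (difference 1.91, adjusted p = 0.0298), and for Klf4 (1.55 and -0.08) the difference of 1.62 had an adjusted p of 0.0677. For Wdr60 itself the difference was 0.57 (adjusted p = 0.0274), less than 2-fold. State and serum cannot be told apart in this difference, and whether the control clones were the same is not known.

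**Figure D5:**
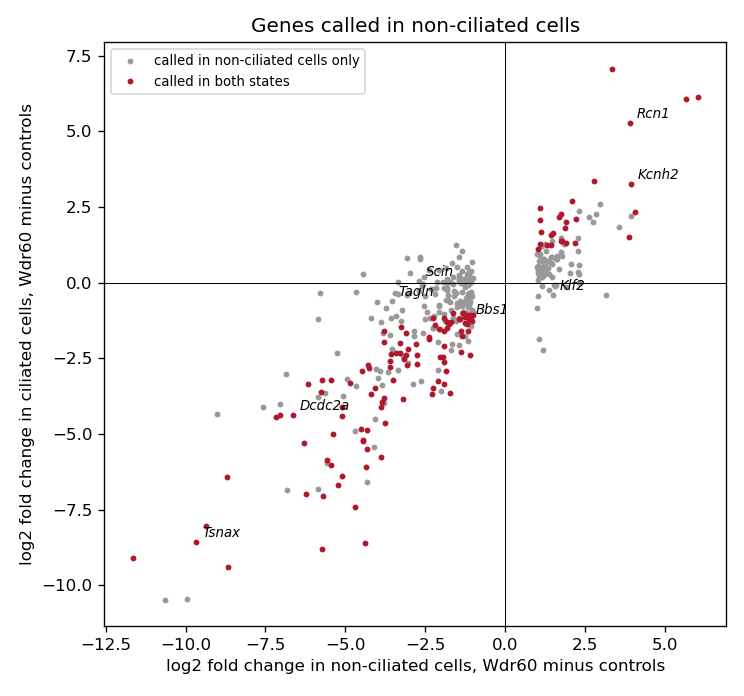
The log2 fold changes of the Wdr60 clone over its controls in non-ciliated cells (horizontal) and ciliated cells (vertical) are plotted for the genes called in non-ciliated cells and tested in both states, in red where both states called them. Tsnax, Kcnh2 and Rcn1 lie far from 0 on both axes, while Scin, Tagln and Klf2 lie close to 0 on the vertical axis.

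The Wdr60 clone was also compared with the non-ciliated clone edited in Wdr34, also 4 libraries of 1 clone. Of 11698 genes, 430 were higher in the Wdr60 clone (3.68%) and 228 lower (1.95%). Of the genes called against the controls, 82 of 120 higher genes tested were also called higher than in the Wdr34 clone, and 111 of 215 lower genes also lower, while 1 and 2 were called in the opposite direction. Both comparisons use the same 4 Wdr60 libraries, so these counts are a description. Tsnax averaged 25.5 CPM and Alcam 2.44 CPM in the Wdr34 clone, inside their control ranges (log2 differences -9.44 and -8.37, adjusted p = 3.38e-08 and 0.000184). Kcnh2 was higher than in the Wdr34 clone by 4.14, Rcn1 by 4.51, Mrc2 by 7.52 and Klf4 by 2.34, and Bbs1 lower, at a difference of -1.01. Several genes that were low in the Wdr60 clone were low in the Wdr34 clone as well, with no count for Pitx1, 0.247 CPM for Sytl2, 0.102 CPM for Chst15 and 0.0722 CPM for Npy2r, and these were not tested between the 2 clones. Pvrl1 was higher in the Wdr34 clone, by 1.45 on the log2 scale.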

How the data were processed

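The study sequenced RNA of edited and control clones of Cilia-APEX-IMCD3 cells as paired-end reads; per the labels, libraries were made with a SMARTer mRNA kit from total RNA. The authors aligned reads to GRCm38/mm10 with Rsubread and counted them with featureCounts; the submitters' processing notes list R 3.4.4 and DESeq2 1.18.1. The deposited values are raw counts for 24421 gene symbols, with no normalization. The strand setting and the handling of multi-mapping reads are not given in the sources used here.

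The test was that of edgeR 4.0.16 under R 4.3.3 (filterByExpr, TMM, quasi-likelihood test, 2-sided, Benjamini-Hochberg), which was checked on simulated data; alternatives used limma 3.58.1 and DESeq2 1.42.0. Symbols were matched to RefSeq (GRCm38.p6; 12338 of 12371 tested). Calls needed an adjusted p under 0.05 and at least 1 log2 unit of difference. Named genes were the 15 highest and 15 lowest called genes with separated libraries and at least 1 CPM, dynein-2 subunits, up to 4 called genes per direction of each list (else the 2 most abundant), the 10 genes furthest off in R1 in each direction, genes the study named for both states and the 3 chromosomes furthest from 0. Members and lists were chosen with earlier results of these data known. Intervals and floors (3 counts) cover counting error only. Some genes are not reported here. Alternatives are given at the end.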

Additional observations from a re-analysis of the deposited data

Results flagged for a closer look

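Within the Wdr60 clone, 111 named genes with at least 20 counts were checked for 1 library far from the other 3. Genes named only for their deviation in R1 were left out. The check used Dixon's ratio, which picks about 1 in 20 groups by chance. It picked 11 genes, in 10 of them R1. R1 was low for Dynll2, a dynein light chain, at 107 CPM against 157 to 162 in R2 to R4, for Fzd7 at 12.2 against 16.4 to 16.7, for Ntn1 at 6.19 against 8.67 to 8.84, for Scd2 at 2348 against 2768 to 2818 and for Slc2a1 at 86.4 against 95.4 to 97.1. R1 was high for Dynlrb1 at 134 CPM against 86.4 to 92.0, for Mki67 at 515 against 307 to 314, for Peg3 at 136 against 98.5 to 99.6, for Rbmy at 8.10 against 2.48 to 2.96 and for Top2a at 1068 against 851 to 882. Rbmy was already among the genes counted higher in R1, so its pick repeats that result. Rab6b was low in R4, at 0.678 CPM against 1.11 to 1.16. The mean absolute difference from the clone stood apart in R1 of the Wdr60 clone (0.329, against 0.124 to 0.141) and R1 of control AB (0.417, against 0.146 to 0.176). Of the genes chosen by the naming rule, 4 differed between the states by the interaction test, with differences of -1.38 for Fmnl3, 1.91 for Klf2, -2.76 for Scin and -2.94 for Tagln. Of the genes called with clones as blocks, Aldh1a2 (-2.43), Adgrg1 (-1.72) and Srd5a1 (-1.35) differed as well. The causes were not tested.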

How the results depend on the processing

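Calls against the controls were 122 higher and 300 lower. DESeq2 gave 138 and 458, RLE factors 123 and 299, a filter of 1 or more counts in any of the libraries 188 and 288, at least 10 counts in every library 55 and 155, adjusted p alone 740 and 743, and adjusted p under 0.01 69 and 135. Spread within clones gave 507 and 463, voomLmFit with clones as blocks 14 and 5, and clones summed 0 and 0. Leaving out replicates or control clones gave 52 to 308 higher and 109 to 473 lower genes; with Wdr60 R1 and control AB R1 both left out, chosen after seeing the data, 189 and 331. Without R2 there were 76 and 156, without R3 79 and 162 and without R4 88 and 177. Replicate numbers did not pair the libraries (same-number correlations -0.60 to 0.41, 15 of 40 over 0.1, and 1 of 20 libraries closest to its own number); the replicate block gave 97 and 217. The difference between states, 7 and 28, became 19 and 53 with DESeq2 and ranged over 3 to 10 and 17 to 23 without single Wdr60 replicates, with 6 and 24 under the replicate block. Against the Wdr34 clone, the filter of 10 counts gave 266 and 141 for 430 and 228, and the replicate block 415 and 225. In R1, a pseudocount of 0.1 gave 16 higher genes and a 1.5-fold limit 282 higher and 764 lower. The chromosome Y median was 0.26 over 4 genes with the filter of 10 counts. The causes were not tested. Of 122 named called genes, none changed sign; DESeq2 kept all calls. With clones as blocks 111 were lost and with clones summed all 122; without R1 of the Wdr60 clone 20 were lost, without R2 44, R3 45 and R4 42, with replicates of one number left out in all clones 14 to 65, without control 1 25 of 120 tested, without control 2 13 of 120, without control 3 17 of 121 and without control AB 4. Low-count genes, with under 1 CPM in a group, are limited by depth.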
